A study of Ovis aries with 36 samples.

Results

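Of 26478 sheep gene IDs counted in 36 libraries, 130 were high in the pineal gland and the hypothalamus and low in the pars tuberalis. They were chosen by their levels in these same libraries, with a level given as counts per 1000000 counts of the library (CPM). A gene was taken when its median over the 12 pineal libraries and its median over the 12 hypothalamus libraries were both at least 10 CPM. Both medians also had to be at least 8 times the pars tuberalis median, and to lie within 3-fold of each other. The tissue differences of the 130 genes are therefore the choice itself and are described below without a test. Genes with at least 10 CPM in both tissues numbered 9590, so the 130 make up 1.36% of them. The same rule applied to the other tissue pairs found 69 genes for the hypothalamus with the pars tuberalis and 19 for the pineal gland with the pars tuberalis.

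The libraries came from 12 adult rams of the Rasa Aragonesa breed, 6 sexually active and 6 not active (called inactive here). Each ram gave 1 messenger RNA library from the pineal gland, 1 from the hypothalamus and 1 from the pars tuberalis, and the labels name no drug, transgene or other treatment. Animals 1 to 6 were active and animals 7 to 12 inactive. Depth ran from 25242937 to 72951491 counts per pineal library, from 19251952 to 44283825 per hypothalamus library and from 22556623 to 35440028 per pars tuberalis library.

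The pineal gland and the hypothalamus both arise from the wall of the diencephalon, while the pars tuberalis arises with the anterior pituitary from the oral ectoderm. The pineal gland holds melatonin-producing pinealocytes among glia-like interstitial cells, and the hypothalamus holds neurons together with astrocytes and oligodendrocytes. The pars tuberalis is an endocrine tissue rich in melatonin receptors that lies against the base of the hypothalamus. None of the 26478 IDs could be paired with a gene symbol in the files or the reference table used here, so no function is given for any ID and no marker list could be read. Each tissue was checked instead by genes restricted to it, with a median of at least 20 CPM and at least 50 times that of both other tissues. These numbered 67 for the pineal gland, 32 for the hypothalamus and 47 for the pars tuberalis, and none of the 130 genes was among them. Every library stood at 57.5% or more of the tissue median for its own set. The pineal library of inactive ram 10 had the hypothalamus set at 9.14% of its own-tissue level, where the median pineal library had 0.642%. The hypothalamus library of active ram 4 had the pars tuberalis set at 15.6%, where the median hypothalamus library had 0.404%. In a whole tissue, fewer cells of a type and less RNA per cell cannot be told apart.

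Together the 130 genes held 3.06% ± 0.193 of all pineal counts, 3.83% ± 0.383 of hypothalamus counts and 0.175% ± 0.037 of pars tuberalis counts (SD, n = 12 each). Pineal libraries ran from 2.72% to 3.32%, hypothalamus libraries from 3.05% to 4.43% and pars tuberalis libraries from 0.116% to 0.228%. The lowest hypothalamus library was that of animal 4, the one with pars tuberalis genes at 15.6%. The part of those genes in the low value was not tested. The pineal library of animal 10 held 2.81%, inside the range of the other pineal libraries.

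**Figure D1:**
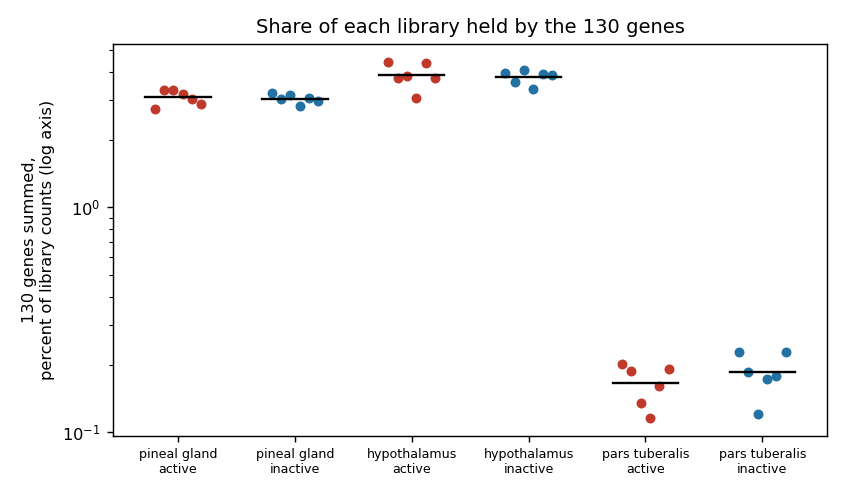
Share of each library's counts held by the 130 genes, as a percent on a log axis, for the 6 groups of tissue and state. Points are single rams (6 per group) and bars are group means; pineal and hypothalamus libraries lie between 2.72% and 4.43%, and pars tuberalis libraries between 0.116% and 0.228%.

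The set was dominated by a few very abundant transcripts. ENSOARG00020025675 had the highest median of all members in both tissues and alone held 18.6% of the members' pineal counts and 21.8% of their hypothalamus counts. It ran from 4020 to 8188 CPM in pineal libraries with a median of 5226 CPM. In hypothalamus libraries it ran from 5924 to 12119 CPM with a median of 7864 CPM. In pars tuberalis libraries it ran from 0.725 to 143 CPM with a median of 93.5 CPM, so the lowest pineal library held many times the highest pars tuberalis library. ENSOARG00020022579 came next in both tissues, at 2263 to 3835 CPM in the pineal gland (median 3140 CPM) and 3580 to 5536 CPM in the hypothalamus (median 4482 CPM). Its pars tuberalis level, 242 to 561 CPM, was the highest of any member there, and its lower median was 8.06 times the pars tuberalis median, just inside the limit. The 10 most abundant members held 56.6% of the members' pineal counts and 62.7% of their hypothalamus counts, and 8 IDs were among the 10 highest in both. Pineal medians reached 1000 CPM for 5 members and 100 CPM for 52, and hypothalamus medians for 10 and 51.

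**Figure D2:**
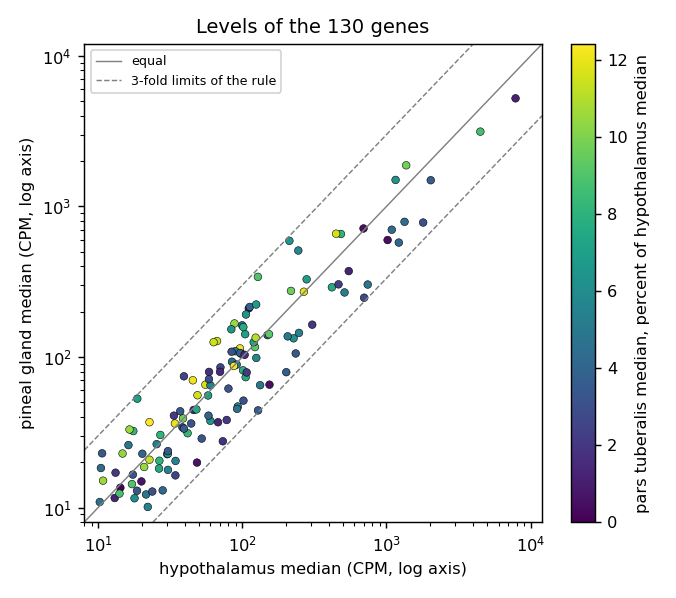
Median level of each of the 130 genes in the pineal gland (y axis, CPM, log axis) against the hypothalamus (x axis, CPM, log axis), coloured by the pars tuberalis median as a percent of the hypothalamus median. Dashed lines are the 3-fold limits of the rule; 57 genes lie above the line of equal level and 73 below it.

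Within the 3-fold limits the balance between the tissues varied. The ratio of pineal to hypothalamus median ran from 0.344 to 2.83 with a median of 0.942; 57 members were higher in the pineal gland and 73 lower, and 71 were within 1.5-fold. ENSOARG00020016674 had the highest ratio, with 18.9 to 98.9 CPM in the pineal gland (median 52.8 CPM) and 5.28 to 64.4 CPM in the hypothalamus (median 18.7 CPM). Its tissues overlapped widely. ENSOARG00020009934 was next at a ratio of 2.79, with 379 to 790 CPM in the pineal gland and 147 to 329 CPM in the hypothalamus. For this ID every pineal library was above every hypothalamus library, and its fitted log2 difference, pineal minus hypothalamus, was 1.5 (SE 0.18). At the other end, ENSOARG00020004504 had 34.8 to 57.6 CPM in the pineal gland and 100 to 163 CPM in the hypothalamus, a log2 difference of -1.52 (SE 0.27). ENSOARG00020016170 had 210 to 366 CPM in the pineal gland and 431 to 1323 CPM in the hypothalamus, a log2 difference of -1.51 (SE 0.16). Neither ID had a pineal library that reached a hypothalamus library.

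Every pineal library exceeded every hypothalamus library for 4 members, ENSOARG00020009934, ENSOARG00020010998, ENSOARG00020016471 and ENSOARG00020019962 (the last 3 named after their values were seen). Among all 16773 genes tested that share was 9.35%. The reverse held for 13 members, where the share of all genes was 9.8%. Since the rule kept both medians within 3-fold, nothing is read from these counts.

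The depth of the pars tuberalis low differed from member to member. The median over the members was 70.6 CPM in the pineal gland and 79 CPM in the hypothalamus, against 3.57 CPM in pars tuberalis. The pars tuberalis median stood at 4.98% of the hypothalamus median for the middle member and ranged from 0% to 12.4%. The lower of the pineal and hypothalamus medians was at least 16 times the pars tuberalis median for 56 members and at least 50 times for 15. ENSOARG00020009249 had the fewest pars tuberalis counts, with 6715 counts over the pineal libraries and 6238 over the hypothalamus libraries, against 12 over the pars tuberalis libraries. Its pooled CPM ratio was 394 for the pineal gland (95% exact counting interval 226 to 764) and 483 for the hypothalamus (277 to 936). These intervals cover counting error only, and 6 of the 12 counts came from the library of inactive animal 8. The ID was picked by these same counts from genes chosen on this ratio, so the intervals are no test of it.

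For 126 of the 130 genes all 24 pineal and hypothalamus libraries lay above all 12 pars tuberalis libraries. The share of all tested genes with such a gap was 5.45%, and since the rule used this contrast nothing is read from the count. The 4 exceptions, named after their values were seen, were ENSOARG00020005011, ENSOARG00020011920, ENSOARG00020016674 and ENSOARG00020020679. ENSOARG00020016674 had 5.28 CPM in the hypothalamus of active animal 2, against 6.63 CPM in the pars tuberalis of inactive animal 7. ENSOARG00020005011 had 8.91 CPM in its lowest pineal library, that of active animal 1, against 9.79 CPM in the pars tuberalis of inactive animal 12. ENSOARG00020011920 had 25.1 CPM in the hypothalamus of active animal 2, against 25.6 CPM in the pars tuberalis of active animal 1. ENSOARG00020020679 had 78 CPM in the hypothalamus of inactive animal 10, against 168 CPM in the pars tuberalis of active animal 5.

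**Figure D3:**
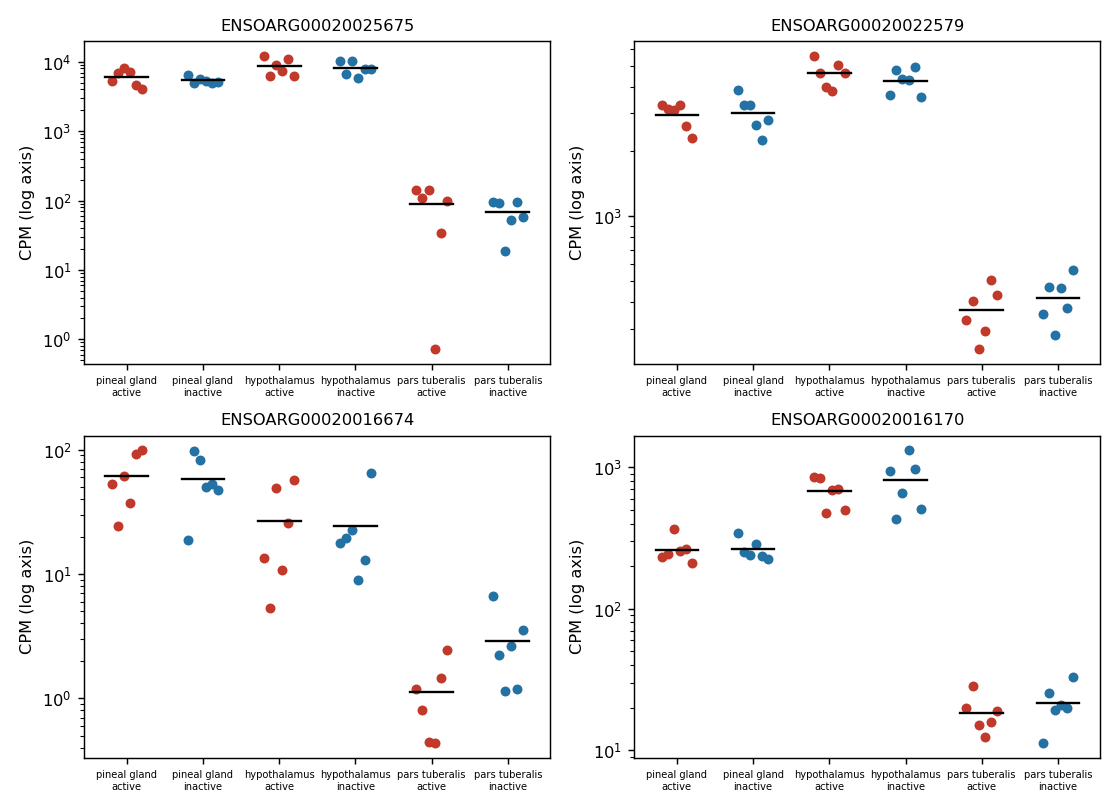
CPM (log axis) of the most abundant members, ENSOARG00020025675 and ENSOARG00020022579, and of members near either end of the ratio of pineal to hypothalamus level, ENSOARG00020016674 and ENSOARG00020016170. Points are single rams, 6 per group, and bars are group means; the pars tuberalis library of active animal 4 has 0.725 CPM of ENSOARG00020025675, where the other pars tuberalis libraries have 18.5 to 143 CPM.

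At the threshold of 10 CPM, ENSOARG00020011231 (pineal median 10.1 CPM) and ENSOARG00020011858 (hypothalamus median 10.3 CPM) were just inside, and ENSOARG00020016498 and ENSOARG00020021490 (hypothalamus medians 9.23 and 9.1 CPM) just outside. At 8 times the pars tuberalis median, ENSOARG00020018314 (8.05 times) and ENSOARG00020022579 (8.06 times) were inside, and ENSOARG00020001916 (7.94 times) and ENSOARG00020002041 (7.9 times) outside. At the 3-fold limit, ENSOARG00020004504 (2.91-fold) and ENSOARG00020016674 (2.83-fold) were inside, and ENSOARG00020011417 (3.11-fold) and ENSOARG00020005819 (3.12-fold) outside. With medians taken over the active rams alone the rule found 150 genes, 124 of them members, and over the inactive rams alone 112 genes, 109 of them members. Both states found 105 of the 130 members.

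What the rule did not use is how the genes varied among rams of the same tissue. The spread between rams, as the SD of log2 CPM around the group means, had a median over the members of 0.384 among pineal glands, 0.478 among hypothalami and 0.663 among pars tuberalis samples. Over the 9590 genes with at least 10 CPM in both the pineal gland and the hypothalamus, the medians were 0.237, 0.327 and 0.28 in the same order of tissues. Over all 16773 genes tested they were 0.324, 0.44 and 0.378. The members thus had the wider median spread in each tissue against either set, by less against all genes tested. Neither set was matched to the members for level, and in the pars tuberalis their level was also low by choice. In the pineal gland ENSOARG00020026136 spread most, with an SD of 1.29 and a range of 6.87 to 107 CPM (median 23.7 CPM). ENSOARG00020021575 followed with an SD of 1.05 and a range of 4.51 to 49.4 CPM. For both IDs inactive animal 12 was among the lowest pineal libraries and active animals 3 and 4 and inactive animal 10 were the highest. In the hypothalamus ENSOARG00020016674 (SD 1.21) and ENSOARG00020004053 (SD 1.19) spread most. ENSOARG00020004053 ran from 2.66 CPM in inactive animal 10 to 39.2 CPM in inactive animal 8.

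In the hypothalamus the correlations between members ran in both directions. They were not computed for other genes, so they are not read as a trait of the members. Over all 8385 pairs of members, the correlation of their deviations from the group means across the 12 hypothalamus libraries had a median of 0.206, with 28.1% of pairs above 0.5 and 9.53% below -0.5. Average-linkage clustering on these correlations, cut into 2 groups after the data were seen, gave a first group of 41 and a second group of 89 members. Pairs within a group had a median correlation of 0.463 and pairs across groups one of -0.154, as the grouping itself requires. All points share the same 12 libraries, and every level is a share of its library's counts.

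The first group stood highest in the hypothalamus of inactive animal 10, at a median of 140% of the tissue median, and next in active animal 1 at 120%. It was lowest in active animal 3 at 80.7% and active animal 6 at 81.3%. The second group was lowest in inactive animal 10 at 65.9% and in active animal 4 at 71.5%, and highest in inactive animal 12 at 121%. The 32 hypothalamus-restricted genes, which are not members, stood at 208% in inactive animal 10 and 153% in inactive animal 7, and at 57.5% in inactive animal 8 and 70.6% in active animal 3. Across the hypothalamus libraries, 49 of the 130 members had deviations that correlated positively with the level of those restricted genes and 81 negatively, with a median of -0.228. Of the 9590 genes with at least 10 CPM in both tissues, 5 of them restricted genes, 51.9% correlated positively, with a median of 0.0479. By group, 40 of the 41 first-group members correlated positively, with a median of 0.553. Of the 89 second-group members 80 correlated negatively, with a median of -0.516. The groups were drawn from the same 12 libraries, so nothing is read from their opposite signs. The part of the restricted genes' level in the grouping was not tested.

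**Figure D4:**
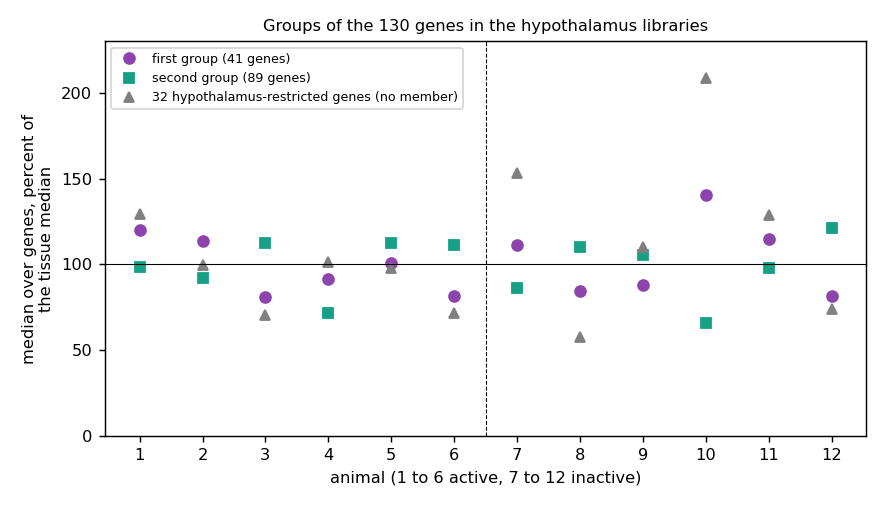
Hypothalamus libraries of the 12 rams: median level of the first group (41 members), the second group (89 members) and 32 hypothalamus-restricted genes that are not members, each as a percent of the tissue median. Animal 10 has the first group at 140%, the second at 65.9% and the restricted genes at 208%.

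The groups held members of like abundance. Their median levels were 55.7 CPM (first) and 74.4 CPM (second) in the pineal gland, 73.3 and 80.1 CPM in the hypothalamus, and 3.87 and 3.45 CPM in the pars tuberalis. ENSOARG00020016170 and ENSOARG00020013409 belonged to the first group, and ENSOARG00020025675, ENSOARG00020022579 and ENSOARG00020016674 to the second. In the 12 pineal libraries, which the grouping did not use, pairs within a group had a median correlation of 0.0984 and pairs across groups one of -0.0429. In the 12 pars tuberalis libraries, also not used, the values were 0.445 within a group and 0.356 across. The hypothalamus values are fitted by the grouping, so no difference between tissues is read from these. Over all pairs the pineal median was 0.0368. The pineal and hypothalamus libraries come from the same rams.

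Member by member, deviations of the pineal gland correlated with those of the hypothalamus of the same ram at a median of 0.148, with 92 of 130 positive. The 9590 genes with at least 10 CPM in both tissues had a median of 0.164 and 69.6% positive, so the members were close to that background. Between hypothalamus and pars tuberalis the members' median was 0.17 with 94 positive (72.3%), where the 9590 genes had 0.0471 and 57% positive. Between pineal gland and pars tuberalis it was 0.0131 with 67 positive (51.5%), where the 9590 genes had 0.149 and 68% positive. The 9590 genes were taken without regard to their pars tuberalis level, which is low by choice in the members. Nothing is therefore read from the members against them in either pair with the pars tuberalis.

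In the pars tuberalis the residual levels of the members tended to correlate positively. Pairs of other genes of like low level were not examined, so this is not read as a trait of the members. The median correlation over pairs of members there was 0.414, with 40.7% of pairs above 0.5 and 1.69% below -0.5. As a percent of the hypothalamus median, the middle member stood at 6.84% in the pars tuberalis of inactive animal 12, the highest, and at 2.48% in that of active animal 4, the lowest. The pars tuberalis library of active animal 4 held the lowest level of 65 of the 130 members. ENSOARG00020025675 was at 0.725 CPM there, against 18.5 to 143 CPM in the other 11 pars tuberalis libraries. ENSOARG00020004504 had no count in it, against 1.62 to 6.52 CPM in the others. The 32 hypothalamus-restricted genes stood at 0.184% of their own tissue's level in that library, the lowest of the pars tuberalis libraries, whose range was 0.184% to 0.712%. The 67 pineal-restricted genes stood at 0.0773% to 0.187%, and the 47 pars tuberalis genes were lowest in inactive animal 7 at 58.7%. The restricted sets were chosen at 50 times the other tissues and the members at 8 times, so their lower percents than the members' follow from the rules. Whether RNA of neighbouring tissue had a part in the members' level was not tested.

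The rule used no contrast between active and inactive rams, so the state comparison can be tested on the members. All 130 passed the filter on low counts and entered a fit of 16773 genes over the 36 libraries. In the pars tuberalis libraries alone 126 passed, and the other 4 passed only through the tissues where they are high. The fit gave each gene 1 dispersion for the 3 tissues. The members' median spread differed between them, at 0.384 (pineal gland), 0.478 (hypothalamus) and 0.663 (pars tuberalis). Its intervals can therefore be too narrow in the pars tuberalis and too wide in the pineal gland. No difference between tissues is read from its p or its intervals. For pineal glands, the quasi-likelihood test of edgeR, with p adjusted over all genes by Benjamini and Hochberg's method, called 0 members and 0 genes in all (0%) at an adjusted p below 0.05. At an unadjusted p below 0.05 there were 0 members, where 1.94% of all genes had such a p (0.62% higher and 1.32% lower). DESeq2 also called 0 members. Without animal 5, 6, 7 or 9 there was 1 member at an unadjusted p below 0.05. The log2 differences, active minus inactive, ran from -0.48 to 0.5 with a median of 0.03, where the median of all genes was 0. For 104 members (80%) the 95% interval excluded a 2-fold difference in either direction, as it did for 77.2% of all genes. A fit of the 12 pineal libraries alone gave 3 members and 266 of 15786 genes at an unadjusted p below 0.05.

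ENSOARG00020013102 and ENSOARG00020025374 had the lowest p among members with a higher pineal level in active rams. ENSOARG00020013102 ran from 201 to 387 CPM in active rams (median 320 CPM) and from 206 to 296 CPM in inactive rams (median 245 CPM). The groups overlapped, and the log2 difference was 0.32 (SE 0.21). ENSOARG00020025374 had 30.2 to 180 CPM in active rams (median 104 CPM) and 52.8 to 126 CPM in inactive rams (median 64.2 CPM), with a log2 difference of 0.5 (SE 0.32), and 0.31 without animal 4. On the other side, ENSOARG00020011215 had 49.4 to 98.8 CPM in active rams (median 59.2 CPM) and 53.8 to 140 CPM in inactive rams (median 88.4 CPM). Its log2 difference was -0.48 (SE 0.27). ENSOARG00020023615 had a median of 93.2 CPM in active rams and 115 CPM in inactive rams (log2 difference -0.34, SE 0.34), and the difference was -0.2 without animal 7. The edgeR fit gave each of these IDs an adjusted p of 1.

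**Figure D5:**
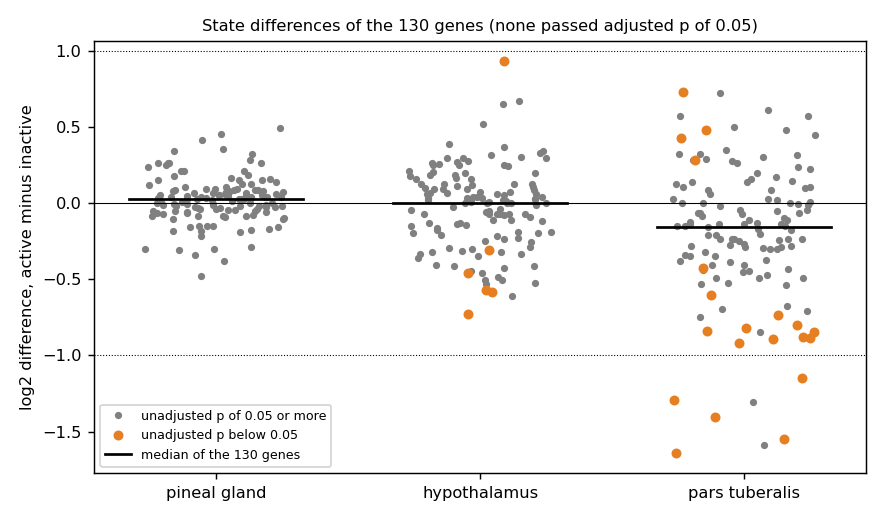
Log2 difference, active minus inactive rams, of each of the 130 genes in each tissue, from the fit of all genes. Orange points have an unadjusted p below 0.05 (0 for the pineal gland, 6 for the hypothalamus, 20 for the pars tuberalis), bars are medians, and none of the 130 genes passed an adjusted p of 0.05.

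In the hypothalamus the same test called 0 members, where 0.0954% of all genes were called, and DESeq2 called 0 members. The lowest adjusted p that edgeR gave a member was 0.401. At an unadjusted p below 0.05 there were 6 members (1 higher and 5 lower in active rams), where all genes had 9.33% (5.74% higher and 3.59% lower). The median log2 difference was 0 and the range -0.73 to 0.93, and the interval excluded a 2-fold difference for 86 members (66.2%) and for 72.1% of all genes. Without the hypothalamus library of animal 4 the median was 0.1 and 3 members had an unadjusted p below 0.05. Without animal 10 there were 1, and without animal 8 there were 10. A fit of the 12 hypothalamus libraries alone gave 4 members and 711 of 15655 genes at an unadjusted p below 0.05. The background share of 9.33% thus depended on the fit of all tissues together, and nothing is read from the members' count against it.

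ENSOARG00020009804 was the member with the lowest p on the higher side in the hypothalamus, and 1 ram carried it. It ran from 56.2 to 599 CPM in active rams (median 97.8 CPM) and from 46.5 to 140 CPM in inactive rams (median 83.3 CPM). Active animal 2 had the 599 CPM and the next active ram 101 CPM. The log2 difference was 0.93 (SE 0.41) with an edgeR adjusted p of 0.455, and it was -0.08 without animal 2. ENSOARG00020018314 was also highest in active animal 2, at 82.4 CPM, where the next active ram had 35 CPM, and its inactive rams ran from 17.5 to 25.6 CPM. Its log2 difference was 0.65 (SE 0.38), and 0.15 without animal 2. ENSOARG00020020794 had 57.1 to 145 CPM in active rams and 80.1 to 257 CPM in inactive rams. The groups overlapped, at a log2 difference of -0.57 (SE 0.24), and -0.34 without animal 10. ENSOARG00020005922 had 193 to 336 CPM in active rams and 182 to 473 CPM in inactive rams. The groups overlapped, at a log2 difference of -0.46 (SE 0.2). Both belong to the first group and were highest in inactive animal 10, the library with hypothalamus-restricted genes at 208%. The edgeR adjusted p was 0.401 for ENSOARG00020020794 and 0.426 for ENSOARG00020005922.

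In the pars tuberalis, where the members are low by choice, the test again called 0 members and 0 genes in all (0%), and DESeq2 called 0 members. The members' differences lay on the lower side, with 89 lower and 41 higher in active rams and a median log2 difference of -0.15, where the median of all genes was -0.01. At an unadjusted p below 0.05 there were 20 members, 4 higher and 16 lower, all of them among the 126 that passed the filter in this tissue alone. Of those 126, 86 were lower and 40 higher, and the interval excluded a 2-fold difference for 65. The 4 others, named after their values were seen, were ENSOARG00020001404, ENSOARG00020004053, ENSOARG00020009249 and ENSOARG00020024365, with at most 0.661 CPM in any pars tuberalis library. The corresponding shares of all genes were 3.54% in either direction, 1.04% higher and 2.5% lower. The lowest edgeR adjusted p was 0.967. The interval excluded a 2-fold difference for 66 members (50.8%) and for 72.4% of all genes. Since the members' levels were correlated in this tissue, the members in these counts, the 20 and the 89 and 41 alike, are not independent of each other. The median of the members' log2 deviations from the group means had an SD of 0.438 between rams there. The median difference of -0.15 is therefore not read as an effect of state. A fit of the 12 pars tuberalis libraries alone gave 11 of 126 members and 419 of 15501 genes at an unadjusted p below 0.05.

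The count of 20 rested on several rams. It was 7 without animal 7, whose library had pars tuberalis genes at 58.7%, and 10 to 12 without animal 3, 4, 5 or 12. The median log2 difference without animal 7 was -0.04. Summed over the members, active rams had 0.165% ± 0.034 of pars tuberalis counts and inactive rams 0.185% ± 0.04 (SD, n = 6 each), with ranges of 0.116% to 0.202% and 0.12% to 0.228%. The 32 hypothalamus-restricted genes had 0.4% ± 0.242 in active and 0.372% ± 0.111 in inactive rams in this tissue.

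ENSOARG00020016495 had the lowest p of the members on the lower side in the pars tuberalis, with 0.29 to 1.15 CPM in active rams (median 0.828 CPM) and 1.06 to 2.38 CPM in inactive rams (median 1.46 CPM). Its log2 difference was -1.15 (SE 0.33). ENSOARG00020009103 had 1.48 to 4.99 CPM in active rams and 3.77 to 26.4 CPM in inactive rams, with the 26.4 CPM in inactive animal 7. Its log2 difference was -1.55 (SE 0.48), and -0.67 without animal 7. ENSOARG00020016651, named after its values were seen, was the only member with groups that lay apart, and it did so in the pars tuberalis alone. It had 0.609 to 2.23 CPM in active rams and 2.36 to 3.99 CPM in inactive rams (log2 difference -0.89, SE 0.29). Of all tested genes 0.0894% lay apart in this direction in the pars tuberalis, and 0.00596% in the other. In the pineal gland 0.0119% of genes lay apart with active rams above and 0.0298% with active rams below, and in the hypothalamus 0.0238% above and 0.0358% below, with 0 members in each. On the higher side, ENSOARG00020025401 had 1.62 to 3.17 CPM in active rams and 1.06 to 3.24 CPM in inactive rams (log2 difference 0.43, SE 0.2), and the difference was 0.66 without animal 10. ENSOARG00020013409 had 50.8 to 67.1 CPM in active rams and 31.7 to 63 CPM in inactive rams (log2 difference 0.28, SE 0.13). The edgeR adjusted p of all 5 IDs was 0.967.

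Averaging the state difference over the pineal gland and the hypothalamus gave the most intervals that excluded a 2-fold difference among the 5 state comparisons. A mean over 2 tissues has a smaller error by construction. The members' median SE was 0.222, against 0.314 for the pineal gland and 0.315 for the hypothalamus. The fit took a ram's 2 libraries as independent, although the members' deviations correlated between them at a median of 0.148. These intervals may therefore be too narrow. The 95% interval excluded a 2-fold difference for 124 members (95.4%) and for 85.6% of all genes. The test called 0 members, where 0.0119% of all genes were called, and 2 members had an unadjusted p below 0.05, where 5.92% of all genes did (2.99% higher and 2.93% lower). DESeq2 called 0 members. ENSOARG00020020794 and ENSOARG00020005922 were those 2, at -0.39 (SE 0.17) and -0.31 (SE 0.14). The count was 4 without animal 1 or 8, 6 without animal 6, 1 without animal 4, 9 or 11, and 0 without animal 10. Higher in active rams were ENSOARG00020025374 at 0.41 (SE 0.23) and ENSOARG00020009804 at 0.48 (SE 0.29). For ENSOARG00020009804 the value was -0.04 without animal 2, for ENSOARG00020025374 0.26 without animal 1 and for ENSOARG00020020794 -0.25 without animal 10. The lowest edgeR adjusted p was 0.734.

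The state effect did not differ detectably between the pineal gland and the hypothalamus for any member. The test of that difference called 0 members and 0 genes (0%), and 2 members had an unadjusted p below 0.05, where 4.08% of all genes did (1.17% higher and 2.9% lower). DESeq2 called 0 members for the difference. The count of 2 was 1 without animal 3, 7 or 10, and 3 without animal 1, 5, 8, 11 or 12. ENSOARG00020013102 had a state difference of 0.32 for pineal glands and -0.41 for the hypothalamus, a difference of 0.73 (SE 0.29). ENSOARG00020009249 had a pineal minus hypothalamus difference of 0.91 (SE 0.46), ENSOARG00020011215 one of -0.78 (SE 0.38) and ENSOARG00020009804 one of -0.9 (SE 0.58). The edgeR adjusted p rounded to 1 for all 4. For 80 of the 130 members the interval of this difference did not exclude a 2-fold change. It excluded one for 38.5% of the members and for 57.6% of all genes. The fit took a ram's 2 libraries as independent, although the members' deviations correlated between them at a median of 0.148. For a difference within rams these intervals may therefore be too wide. With the animal as a fixed block edgeR also called 0 members for the difference.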

How the data were processed

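RNA was measured in 36 libraries, 6 for each tissue and state. The authors deposited raw counts per gene, whole numbers that were not normalised. Per the labels' protocols, libraries were stranded, read from both ends, and carried molecular identifiers. The tools named in the submitters' processing notes are edgeR, HTSeq, FastQC and STAR (2.7.8a). Genome build, annotation release, strand setting and handling of identifiers: not given in the sources, so near-identical or overlapping genes are uncertain. None of the 26478 IDs matched the reference table. No library copied another of its group (in 90 pairs, chi-square was at least 35.7 times its degrees of freedom).

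Levels are counts over the column total. Tests used R 4.3.3 and edgeR 4.0.16 (TMM scaling, default filter with a minimum count of 10, 16773 genes, 1 robust quasi-likelihood fit of 36 libraries, 30 residual degrees of freedom), tested on simulated data beforehand. The simulated data changed genes in the pineal gland alone, with independent libraries and 1 dispersion per gene. They do not bear on correlated libraries of a ram or on a spread that differs between tissues. A standard error is the size of the log2 difference divided by the root of F. The call threshold was an adjusted p (Benjamini-Hochberg) under 0.05. Correlations used log2 CPM with a prior count of 2. Alternatives used DESeq2 1.42.0 and limma 3.58.1. A single animal number in the labels marks a ram's 3 libraries, so numbers pair the tissues; the members' pineal and hypothalamus deviations correlated at a median of 0.148.

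The members, lists and alternatives were chosen with earlier results of these data known. IDs were named by a rule: extremes of level, ratio and spread, the nearest to each threshold, and at most 2 per direction and state comparison with the lowest p. Other IDs are said to be named after their values were seen. The planned marker lists could not be used without names.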

Additional observations from a re-analysis of the deposited data

Results flagged for a closer look

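In 11 of 90 groups of 6 rams examined, the highest ram stood apart from the rest by Dixon's criterion (gap to the next ram above 0.625 of the range). Chance flags about 1 in 20 groups of normally distributed values, and CPM need not be so distributed. Several of these IDs were also named for their spread or a low state p. The 11 are therefore not set against that rate. The 90 groups did not take in every tissue of every ID named here, so the list is not complete. ENSOARG00020005011, which is not among the 11, had 47.1 CPM in the hypothalamus of active animal 2, where the next active ram had 15.8 CPM.

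In the pineal gland, ENSOARG00020026136 had 107 CPM in inactive animal 10 (next 31.4 CPM), ENSOARG00020004504 had 57.6 CPM in inactive animal 12 (next 44.4 CPM), ENSOARG00020011215 had 98.8 CPM in active animal 5 (next 65.1 CPM) and ENSOARG00020016170 had 366 CPM in active animal 3 (next 265 CPM). In the hypothalamus, active animal 2 had 599 CPM of ENSOARG00020009804 (next 101 CPM) and 82.4 CPM of ENSOARG00020018314 (next 35 CPM). Active animal 5 had 19.8 CPM of ENSOARG00020009249 (next 12.6 CPM), inactive animal 8 had 39.2 CPM of ENSOARG00020004053 (next 13.9 CPM) and inactive animal 12 had 64.4 CPM of ENSOARG00020016674 (next 22.7 CPM). In the pars tuberalis, inactive animal 7 had 26.4 CPM of ENSOARG00020009103 (next 8.34 CPM) and inactive animal 10 had 3.24 CPM of ENSOARG00020025401 (next 1.68 CPM). The summed level of the 130 genes stood apart in none of the 6 groups.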

How the results depend on the processing

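No member was called by state under any alternative in any comparison: DESeq2's size factors or its own test, no filter, voom, a tissue alone, without the hypothalamus library of animal 4 or the pineal library of animal 10, or without any 1 animal. The lowest adjusted p of an ID named for state was 0.124 over the alternatives. Over all genes, DESeq2 called more than edgeR, 20 against 0 in the pineal gland, 140 against 16 in the hypothalamus, 1 against 0 in the pars tuberalis, 43 against 2 for the average and 9 against 0 for the difference between tissues. In the hypothalamus voom called 1 gene and the fit of that tissue alone 0.

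Counts at an unadjusted p below 0.05 moved more. Without 1 animal they ran from 0 to 1 in the pineal gland (0 with all animals), from 1 to 10 in the hypothalamus (6), from 7 to 23 in the pars tuberalis (20), from 0 to 6 for the average (2) and from 1 to 3 for the difference between tissues (2). With the animal as a replicate block in voom they were 1, 12, 7, 4 and 5 in that order, and edgeR with the animal as a fixed block gave 2 for the difference. A fit of a tissue's 12 libraries alone gave 3 in the pineal gland, 4 in the hypothalamus and 11, of 126 members tested, in the pars tuberalis. Without the hypothalamus library of animal 4 the hypothalamus had 3. The difference gave 1 with DESeq2's size factors and 1 without the pineal library of animal 10. ENSOARG00020009804 turned its direction without animal 2, to -0.084 in the hypothalamus, -0.0394 in the average and 0.0892 in the difference. Its values without 1 animal ran up to 1.1 in the hypothalamus and 0.626 in the average, and down to -1.21 in the difference. The cause of these moves was not tested.

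The rule found 284 genes at 4-fold over the pars tuberalis and 56 at 16-fold. Without 1 animal it found 123 to 137, and TMM-scaled CPM gave 143, all 130 members among them. Members' low pars tuberalis counts limit the state comparison there.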
